A study of Mus musculus with 21 samples.

Results

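The comparison described here set the 3 day 30 lesion libraries against the 3 day 0 libraries of unoperated mice, 6 of the 21 libraries of the series, chosen by their sample titles. Messenger RNA was counted in the ventral pons, a brainstem block that holds the facial nucleus together with neighbouring reticular and trigeminal nuclei. All mice were C57BL/6 and carried the CX3CR1GFP/wt genotype, in which green fluorescent protein replaces 1 copy of the microglial fractalkine receptor gene, so every group, the unoperated one included, has a single working Cx3cr1 copy. In the day 30 mice the right facial nerve had been cut at the stylomastoid foramen at 8 weeks of age, and the tissue was taken at 12 weeks. The day 30 lesion libraries came from the right pons, and the 3 day 30 contralateral libraries, used to separate a difference of the lesioned side from one found on both sides, came from the left pons. The day 0 libraries came from the left pons of unoperated mice aged 8 weeks. Lesion and right side were therefore not varied separately. The operation, age, time and sequencing lane all changed together between day 0 and day 30, for both day 30 sides, and cannot be told apart. Some day 0 and day 7 libraries carry the same index and lane in their column names, so they cannot have shared a run. Whether day 0 and day 30 shared one is not given in the sources used here. The labels do not say which libraries came from separate animals, so p-values measure the spread between these samples.

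In the count table the day 30 columns carry the letter of the other side than the sample titles do, and the sample descriptions tie each column to the side of its title. That assignment was followed, and the direction of every difference between the day 30 sides rests on it. The day 0 libraries were the deeper ones, with 35874913 to 41448945 counts, against 20923624 to 29827291 for the day 30 lesion and 17956784 to 21908496 for the day 30 contralateral libraries. Mitochondrially encoded genes took 3.05% to 3.6% of the counts at day 0, 5.84% to 6.44% in the lesion libraries and 6.31% to 7.29% in the contralateral ones. The enzyme gene of cholinergic neurons, Chat, which marks the motor neurons of the facial nucleus, was present in each of the 9 libraries, at 18.1 to 42.4 CPM. Levels are given in CPM (a gene's share of a library's counts on one common scale for all libraries, with TMM factors), and differences as log2 with the standard error (SE) of edgeR's quasi-likelihood test. Its p-values were adjusted over the 22294 tested genes (Benjamini-Hochberg), and a gene counted as called when the adjusted p was under 0.05.

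Facial motor neurons send their axons out of the brainstem to the muscles of the face. When the nerve is cut, the cell bodies remain in the pons, switch on a set of injury and regeneration genes and lower genes of transmitter function, while resident microglia around them become activated. Neurons that do not regain their target may be lost over the following weeks, and microglia and lymphocytes gather where they degenerate.

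In the day 30 lesion libraries 4992 genes differed from day 0, which is 22.4% of those tested, with 2831 higher (12.7%) and 2161 lower (9.69%). The median difference over all genes tested was -0.02 on the log2 scale. With library totals in place of TMM factors, 2491 genes were higher and 3012 lower, so the share of higher calls was 45.3% against 56.7%. The 3 lesion libraries all lay above or all below the 3 day 0 libraries for 8662 genes, 38.9% of those tested. At the larger difference the study also used, an absolute log2 of at least 1.7, 275 genes were called, 219 of them higher.

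The contralateral pons of day 30 also differed from the same day 0 libraries, in 3597 genes (16.1% of those tested, 2078 or 9.32% higher and 1519 or 6.81% lower), which became 40% higher in place of 57.8% with library totals. The day 30 sides differed from each other in 259 genes, 1.16% of those tested: the lesion side had the higher level in 232 (1.04%) and the lower level in 27 (0.121%). Since the 2 differences from day 0 share the day 0 libraries, this side difference is the difference between them. For 4011 genes, 18% of those tested, the 3 lesion libraries all lay above or all below the 3 contralateral libraries. Lack of overlap between the sides is thus far more frequent than a called side difference. The count of called side differences fell to 167 without lesion replicate 3 and to 158 without contralateral replicate 3, and was 569 when only the day 30 libraries entered the model.

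Genes called against day 0 were sorted by what the contralateral side showed. Beyond the contralateral shift, that is, called in the same direction against both day 0 and the contralateral side, were 216 higher genes (0.969% of those tested and 7.63% of the higher ones) and 23 lower genes (0.103% of those tested and 1.06% of the lower ones). The median log2 difference of the 216 from day 0 was 0.99 on the lesion side and -0.06 on the contralateral side, and that of the 23 was -0.60 and 0.10. Shared with the contralateral side, that is, called against day 0 in the same direction on both sides with no called side difference, were 1759 higher genes (62.1%) with medians of 0.45 and 0.43, and 1061 lower genes (49.1%) with a median of -0.32 on both sides. The 1061 became 643 without contralateral replicate 2, 600 without contralateral replicate 3 and 1818 with library totals. The other 856 higher and 1077 lower genes were in neither class. The medians of each class on the 2 sides follow in part from these definitions and are a description only. Without lesion replicate 3 the 216 became 143, and without contralateral replicate 3 they became 135. The 23 lower genes became 12 without lesion replicate 2, 13 without lesion replicate 3 and 12 without contralateral replicate 1. They became 42 when the replicate number was fitted as a block, for animal between the sides and as a bare number against day 0.

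**Figure D1:**
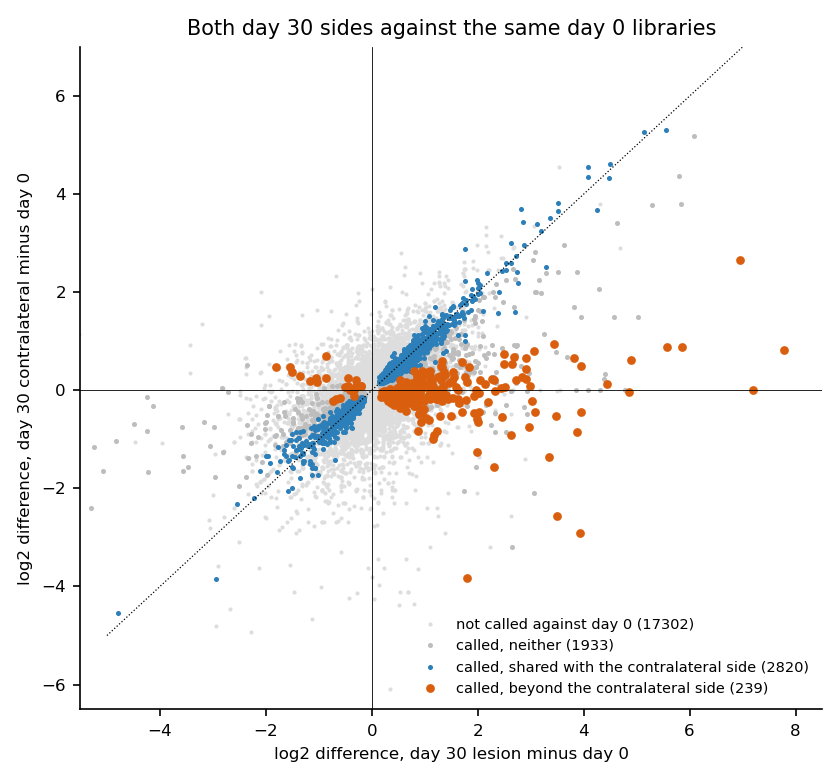
Each point is 1 tested gene, with its log2 difference from day 0 in the day 30 lesion libraries (x axis) and in the day 30 contralateral libraries (y axis), both against the same day 0 libraries, and the dotted line marks equal values. The 239 genes beyond the contralateral shift (orange) spread along the x axis near 0 on the y axis, the 2820 shared genes (blue) follow the line, and 5 genes lie outside the axes.

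Many of the genes that neurons switch on after their axons are cut were still high at day 30, and Sprr1a had 221 times its day 0 level. Of the 25 tested genes of a list of axotomy response genes, 15 were higher than at day 0, none was lower and 10 were not called, with a median log2 difference of 0.57 against -0.02 over all genes. Over all genes tested, 12.7% were higher and 9.69% lower than at day 0. Against the contralateral side 1.04% were higher and 0.121% lower. Of the 25, 9 were beyond the contralateral shift, namely Atf3, Sprr1a, Sox11, Gal, Npy, Tubb6, Gpr151, Gfra1 and Socs3.

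Sprr1a (chr3:92483952-92485895, minus strand, GRCm38), which encodes a small proline-rich protein induced in injured neurons, had the largest difference among the genes that the naming rule gave. It was at 0.248, 0.422 and 0.155 CPM in day 0 replicates 1 to 3, at 35.1, 82 and 72.8 CPM in lesion replicates 1 to 3, and at 1.06, 0.225 and 0.188 CPM in contralateral replicates 1 to 3. All 3 lesion libraries lay far above both other groups, which overlapped each other. The naming rule required such separation of its rising genes beyond the contralateral shift, namely Sprr1a, Cxcl9, Cdkn2a, Cxcl13, Cst7, Ccl5, Gpr151 and Atf3. The log2 difference from day 0 was 7.78 (SE 0.476, adjusted p = 2.7e-08), and that from the contralateral side was 6.96 (adjusted p = 2.4e-06). At days 7 and 14 the lesion side had held 226 ± 64 and 226 ± 27 CPM (SD, n = 3), so the day 30 mean of 63.3 ± 25 CPM was the lowest of the 3 times, though this order was not tested here.

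Atf3 (chr1:191170296-191218039, minus strand), a stress-induced transcription factor that marks injured neurons, was at 0.994, 1.08 and 1.52 CPM at day 0, at 10.1, 22.3 and 24 CPM in the lesion libraries and at 1.83, 1.86 and 1.41 CPM on the contralateral side. The lesion libraries did not overlap with either other group, and lesion replicate 1 was the lowest of them, as it was for Sprr1a. The log2 difference from day 0 was 3.95 (SE 0.303, adjusted p = 2e-07), and that from the contralateral side was 3.45 (adjusted p = 2.2e-05). With only the day 30 libraries in the model the side difference was no longer called (adjusted p = 0.075).

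Gpr151, an orphan G protein-coupled receptor of neurons, was at 0.442, 0.0937 and 0.361 CPM at day 0, at 3.6, 7.68 and 8.26 CPM in the lesion libraries and at 0.241, 0.394 and 0.329 CPM on the contralateral side. It was 21.7-fold above day 0 (adjusted p = 1.1e-08), with a side difference of 4.31 (adjusted p = 1.9e-06). Galanin and neuropeptide Y, peptides that injured neurons make, are encoded by Gal and Npy, and both genes rose. Gal was at 5.71, 15.4 and 9.98 CPM at day 0, at 27.8, 50.5 and 50.7 CPM in the lesion libraries and at 9.54, 6.75 and 6.86 CPM on the contralateral side, a log2 difference from day 0 of 2.03 (SE 0.32, adjusted p = 0.00034). Its call was lost with only the libraries compared in the model, against day 0 (adjusted p = 0.053) as against the contralateral side (adjusted p = 0.065). Npy was at 7.4, 16.1 and 5.08 CPM at day 0, at 35.1, 53.6 and 71 CPM in the lesion libraries and at 4.91, 5.91 and 8.83 CPM on the contralateral side, a log2 difference of 2.46 from day 0 (adjusted p = 0.00043). For both peptides the lowest lesion library exceeded the highest of the other 6.

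Tubb6, a tubulin gene induced in regenerating neurons, was at 11, 13 and 11.1 CPM at day 0, at 21.1, 23.5 and 22.9 CPM in the lesion libraries and at 10.5, 10.5 and 10.2 CPM on the contralateral side, 1.91-fold above day 0 (adjusted p = 4.3e-08). Sox11, a transcription factor of developing and regenerating neurons, was at 4.47, 5.29 and 4.9 CPM at day 0, at 8.69, 10.7 and 11.4 CPM in the lesion libraries and at 6.84, 6.75 and 5.35 CPM on the contralateral side. Its log2 difference was 1.06 from day 0 (adjusted p = 9e-07) and 0.70 from the contralateral side (adjusted p = 0.0039). Gfra1, the receptor for glial cell line-derived neurotrophic factor, rose by 0.57 (adjusted p = 0.00083), and its side difference of 0.53 was called (adjusted p = 0.017) but not with the block for animal (adjusted p = 0.12). Socs3, an inhibitor of cytokine signalling, rose by 1.13 (adjusted p = 4e-04). Klf6 and Smad1, transcription factors linked to axon regrowth, rose on both sides, by 0.65 and 0.34 on the lesion side. Gap43, a growth cone protein, differed by 0.18 (adjusted p = 0.17) and Jun, a transcription factor of the injury response, by 0.14 (adjusted p = 0.29), and neither was called.

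**Figure D2:**
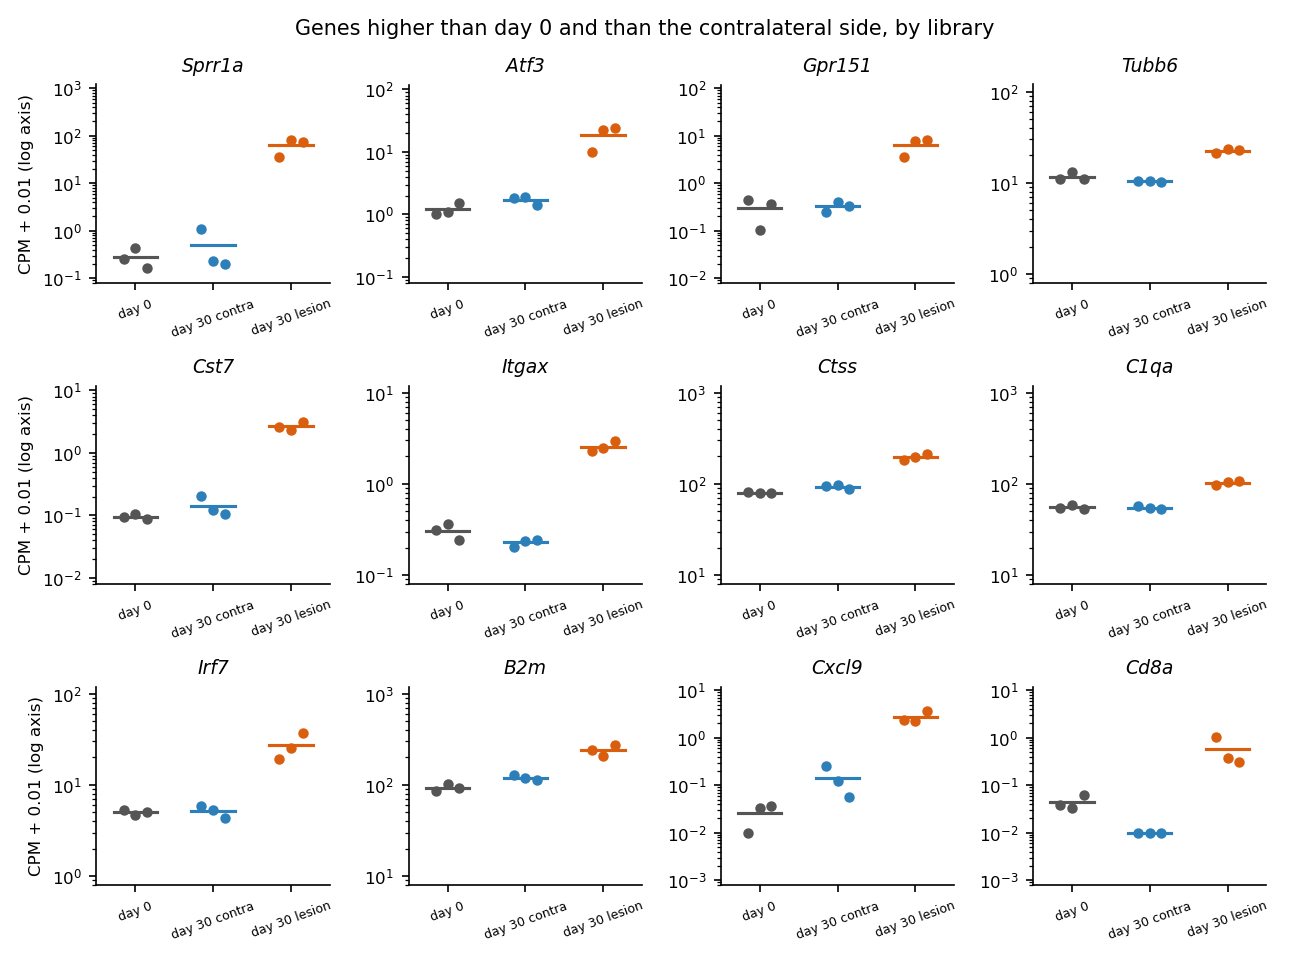
CPM plus 0.01 on log axes for 12 genes called higher in the day 30 lesion libraries than at day 0 and on the contralateral side. Points are the 3 libraries of each group and lines are group means; in each panel the lesion points lie above the points of both other groups.

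Few genes fell beyond the contralateral shift, and the naming rule picked those with the largest difference. Of the 8 falling genes that the naming rule gave beyond the contralateral shift, Vipr2, Kcnj14, Prss12, Htr3a, Vdr, Grin3b, Trim58 and Chodl, Vipr2 had the largest difference and stood 2.91-fold below day 0. In bulk tissue, fewer cells of a type and less RNA per cell cannot be told apart.

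Vipr2 (chr12:116077726-116146261, plus strand), a receptor for vasoactive intestinal peptide, was at 8.42, 6.11 and 7.69 CPM at day 0, at 3.2, 2.04 and 2.24 CPM in the lesion libraries and at 12.1, 8.05 and 10.4 CPM on the contralateral side. It fell by 1.54 from day 0 (SE 0.235, adjusted p = 6e-05) and was lower by a log2 difference of -2.01 against the contralateral side (adjusted p = 3.3e-05). Kcnj14 (chr7:45816460-45824782, minus strand), an inwardly rectifying potassium channel of motor neurons, was at 14.1, 12.4 and 14.1 CPM at day 0, at 4.81, 4.77 and 4.62 CPM in the lesion libraries and at 23.2, 14 and 15.1 CPM on the contralateral side. Its log2 difference was -1.51 from day 0 (SE 0.182, adjusted p = 3.2e-06) and -1.88 from the contralateral side (adjusted p = 3.4e-06). Both genes were lower in every lesion library than in any of the other 6, as the naming rule required.

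Prss12, which encodes the synaptic protease neurotrypsin, was at 10.7, 8.97 and 11.9 CPM at day 0, at 4.61, 3.82 and 3.89 CPM in the lesion libraries and at 17, 11.6 and 9.77 CPM on the contralateral side, a log2 difference of -1.35 from day 0 (adjusted p = 3.6e-07). Htr3a, a serotonin-gated ion channel, was at 7.9, 5.39 and 7.12 CPM at day 0, at 2.79, 3.32 and 2.97 CPM in the lesion libraries and at 9.15, 7.04 and 7 CPM on the contralateral side, a log2 difference of -1.17 (adjusted p = 1.2e-05). Grin3b, a glutamate receptor subunit found in motor neurons, was at 7.09, 5.69 and 6.94 CPM at day 0, at 3.54, 2.82 and 3.21 CPM in the lesion libraries and at 8.28, 6.7 and 7.19 CPM on the contralateral side, a log2 difference of -1.03 (adjusted p = 7.7e-05). The lesion libraries did not overlap with the other groups in these 3 genes, which the naming rule required. Exons of Prss12 and Grin3b lie opposite another gene (Gm35065 and Tmem259), and whether counting used the strand is not given in the sources used here, so reads of the partners cannot be told apart. Vdr, the vitamin D receptor, fell by 1.06 from day 0 (adjusted p = 0.0025). Its side difference of -1.30 (adjusted p = 0.0047) was lost with only the day 30 libraries in the model (adjusted p = 0.11). Trim58, a ubiquitin ligase gene, fell by 0.87 from day 0 (adjusted p = 0.0085). The side difference of Trim58 (-1.13, adjusted p = 0.014) was lost without any one of lesion replicates 2 and 3 and contralateral replicates 1 and 3 (adjusted p of 0.066, 0.085, 0.086 and 0.15).

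A list of 18 motor neuron and cholinergic genes, all tested, held 1 higher and 3 lower genes against day 0, beside 12.7% higher and 9.69% lower over all genes tested, with a median log2 difference of 0.00 on the lesion side and 0.31 on the contralateral side. Against the contralateral side 1 was higher and 4 were lower, beside 1.04% higher and 0.121% lower over all genes tested. The 4 became 6 with the block for animal and 0 without lesion replicate 2, without lesion replicate 3 or without contralateral replicate 1. Against day 0 the 3 lower genes became 1 without lesion replicate 2 or lesion replicate 3. Chat, the enzyme that makes acetylcholine, was at 37.7, 30.7 and 32.3 CPM at day 0, at 23.3, 18.3 and 18.1 CPM in the lesion libraries and at 42.4, 30.6 and 33.3 CPM on the contralateral side, with no overlap. It fell by 0.74 (SE 0.212, adjusted p = 0.02), a call lost without lesion replicate 2 (adjusted p = 0.074), lesion replicate 3 (0.077) or day 0 replicate 1 (0.066). Its side difference of -0.83 was not called (adjusted p = 0.11) but was with the block for animal (adjusted p = 6.7e-05).

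Ache, which encodes the enzyme that breaks acetylcholine down, was at 318, 324 and 305 CPM at day 0, at 253, 254 and 242 CPM in the lesion libraries and at 300, 283 and 296 CPM on the contralateral side. It fell by 0.34 (adjusted p = 3.8e-05), and its side difference of -0.23 (adjusted p = 0.023) was lost without each lesion library and without contralateral replicates 1 and 3 (adjusted p of 0.062 to 0.17). Its exons lie opposite Gm42456. Chodl, a membrane protein of fast motor neurons, was at 22.4, 18.4 and 20.8 CPM at day 0, at 13.3, 10.2 and 10.3 CPM in the lesion libraries and at 46.2, 26.3 and 27.8 CPM on the contralateral side. Its call against day 0 (-0.86, adjusted p = 0.042) was lost without any one of the 6 libraries compared (adjusted p of 0.054 to 0.13). Its side difference of -1.56 (adjusted p = 0.011) was lost with the block for animal (0.052) and without lesion replicate 2 (0.065), lesion replicate 3 (0.071) or contralateral replicate 1 (0.054). Slc18a3, the vesicular acetylcholine transporter, differed from day 0 by -0.51, which was not called (adjusted p = 0.066). Its side difference of -0.87 was called (adjusted p = 0.037, and 0.014 with the block for animal). Mmp9, a matrix protease found in fast motor neurons, was the other gene of the list with a called lower side difference (-0.67, adjusted p = 0.017). It differed from day 0 by -0.38 (adjusted p = 0.064).

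The gene of the list that rose was Calca, which encodes the peptide CGRP and is known to be induced in axotomized motor neurons. It was at 28.9, 34.4 and 29.2 CPM at day 0, at 141, 58.5 and 98.9 CPM in the lesion libraries and at 56.6, 38 and 42.7 CPM on the contralateral side, a log2 difference of 1.69 from day 0 (adjusted p = 1e-04). All lesion libraries lay above the other 6, the second by the smallest margin. The side difference of 1.12 (adjusted p = 0.029) was lost without lesion replicate 1 (0.091), lesion replicate 3 (0.092), contralateral replicate 2 (0.15) or contralateral replicate 3 (0.16).

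**Figure D3:**
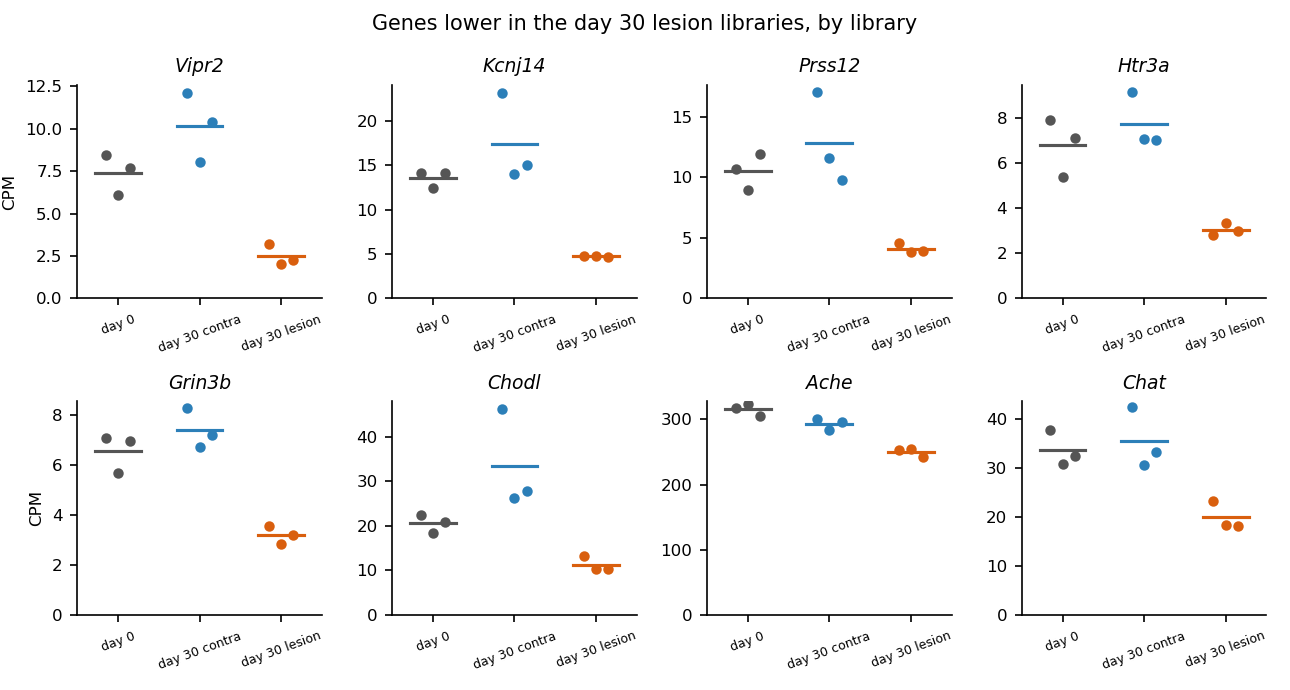
CPM (linear axes from 0) of 8 genes called lower in the day 30 lesion libraries than at day 0. Points are the 3 libraries of each group and lines are group means; the lesion points lie below all others in each panel, by the smallest proportion for Ache.

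Some genes of microglia rose on the lesion side, both of those known from activated microglia and of those known from resting ones. Of 23 activated microglia genes, 13 rose, none fell and 10 were not called, beside 12.7% higher over all genes tested, with a median log2 difference from day 0 of 0.73 on the lesion side and 0.00 on the contralateral side. Of 16 homeostatic microglia genes, 8 rose and none fell, with medians of 0.42 and -0.11. Against the contralateral side 10 and 8 members were called higher, beside 1.04% of all genes tested, and the 8 became 4 without lesion replicate 3 or without contralateral replicate 2.

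Cst7 (chr2:150570415-150578944, plus strand), which encodes the protease inhibitor cystatin F and marks microglia near degenerating tissue, was at 0.0828, 0.0937 and 0.0774 CPM at day 0, at 2.56, 2.36 and 3.11 CPM in the lesion libraries and at 0.193, 0.113 and 0.0939 CPM on the contralateral side. It was 29.7-fold above day 0 (adjusted p = 1.6e-08), with a side difference of 4.27 (adjusted p = 5.9e-06). Its earlier lesion means were lower, 0.549 ± 0.3 CPM at day 7 and 0.99 ± 0.61 CPM at day 14 (SD, n = 3), the opposite order to Sprr1a and also not tested here. Itgax, the integrin chain CD11c, was at 0.304, 0.351 and 0.232 CPM at day 0, at 2.26, 2.45 and 2.97 CPM in the lesion libraries and at 0.193, 0.225 and 0.235 CPM on the contralateral side, 8.45-fold above day 0 (adjusted p = 1.3e-07).

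Clec7a, the receptor Dectin-1, was at 0.607, 1.15 and 1.21 CPM at day 0, at 5.89, 4.45 and 3.99 CPM in the lesion libraries and at 1.59, 1.18 and 0.752 CPM on the contralateral side, 4.81-fold above day 0 (adjusted p = 1.3e-07). Trem2, a lipid-sensing microglial receptor, was at 11.6, 11.4 and 11.8 CPM at day 0, at 25.9, 25 and 21.9 CPM in the lesion libraries and at 13.3, 11.7 and 12.4 CPM on the contralateral side. It stood 2.09-fold above day 0 (adjusted p = 3.8e-08), and its signalling adaptor Tyrobp rose by 0.73. For Cst7, Itgax, Clec7a and Trem2 alike, the lesion libraries did not overlap with the other 6, which the naming rule required of Cst7 only. Spp1 (osteopontin) and Apoe (apolipoprotein E), which activated microglia are known to express, differed from day 0 by -0.16 (adjusted p = 0.44) and 0.12 (adjusted p = 0.49). Their levels at day 0 were 219 to 340 CPM and 1440 to 1760 CPM.

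Among the homeostatic genes, Tmem119, a microglial membrane protein, was at 24.5, 22 and 23.4 CPM at day 0, at 32.2, 32.3 and 33.7 CPM in the lesion libraries and at 24, 21.2 and 26.7 CPM on the contralateral side, a log2 difference of 0.49 (adjusted p = 0.00021). The side difference of Tmem119 (0.45, adjusted p = 0.0083) was lost without lesion replicate 3 (0.056) or contralateral replicate 2 (0.1). Aif1, the gene of the microglial marker Iba1, was at 4.94, 5.95 and 4.2 CPM at day 0, at 8.55, 8.99 and 9.09 CPM in the lesion libraries and at 6.31, 4.5 and 4.7 CPM on the contralateral side, a log2 difference of 0.81 (adjusted p = 6.7e-05). Gpr34 and P2ry12, receptors of resting microglia for lipids and nucleotides, rose on both sides. Gpr34 was at 5.55, 4.97 and 6.58 CPM at day 0, at 14.5, 13.9 and 13.6 CPM in the lesion libraries and at 12.4, 11.4 and 10.7 CPM on the contralateral side, with log2 differences from day 0 of 1.30 (adjusted p = 2.1e-08) and, contralaterally, 1.01 (adjusted p = 1.9e-06). Cx3cr1, of which these mice carry a single working copy, was at 26.8, 22.2 and 25.1 CPM at day 0, at 26.8, 25.3 and 25.1 CPM in the lesion libraries and at 22.7, 16.9 and 16.3 CPM on the contralateral side. It was not called against day 0 (0.06, adjusted p = 0.8), and its side difference of 0.46 (adjusted p = 0.23) was called with the block for animal (adjusted p = 0.00083). Markers of border macrophages, which live at the surface of the brain, were not called in any of 8 genes, and their summed level was 21.6 to 23 CPM at day 0, 21.1 to 27.7 CPM in the lesion libraries and 22.7 to 25.4 CPM on the contralateral side.

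Some complement and lysosomal genes rose too, again beside 12.7% higher over all genes tested. Of 18 tested complement genes, 8 rose and none fell (median 0.63, contralateral -0.09), 7 of them beyond the contralateral shift. C1qa, a chain of the complement initiator C1q, was at 54.6, 58.5 and 52.9 CPM at day 0, at 96.1, 106 and 107 CPM in the lesion libraries and at 57.1, 54.3 and 52.6 CPM on the contralateral side, 1.86-fold above day 0 (adjusted p = 2.8e-09). Its partner chains C1qb and C1qc rose by 0.67 and 0.69, and the receptor gene C3ar1 by 1.10. C4b, the next component of the cascade, was at 36.9, 50.1 and 47.1 CPM at day 0, at 100, 89.8 and 88.6 CPM in the lesion libraries and at 51.4, 41.1 and 31.4 CPM on the contralateral side (log2 difference 1.05, adjusted p = 0.00044).

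Of 20 lysosomal genes, 11 rose and 1 fell, beside 12.7% higher and 9.69% lower over all genes tested. Of the 11, 9 were beyond the contralateral shift, and the median of the list was 0.21. Ctss (chr3:95526786-95556403, plus strand), a cysteine protease of microglial lysosomes, was at 82.3, 79.3 and 79.3 CPM at day 0, at 183, 196 and 215 CPM in the lesion libraries and at 94.4, 96.5 and 88.7 CPM on the contralateral side. It was 2.47-fold above day 0 (adjusted p = 3.2e-12). The proteases Ctsb and Ctsd, which many cell types express, rose by 0.18 and 0.35. Lamp2, a lysosomal membrane protein, rose on both sides, by 0.68 and 0.48. The 1 lower call of the list was lost without lesion replicate 3 or day 0 replicate 2.

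Interferon-induced genes formed the list with the largest share of called members. Of 36 tested, 35 were higher than at day 0 and none lower, beside 12.7% and 9.69% over all genes tested. The median log2 difference was 1.44. It was 0.10 on the contralateral side, where 1 was called, beside 9.32% higher over all genes tested. The summed level of the list was 211 to 223 CPM at day 0, 417 to 720 CPM in the lesion libraries and 219 to 259 CPM on the contralateral side. Lesion replicate 3 was the highest, and without it 20 of the 36 were called against day 0. Against the contralateral side 11 were called higher, beside 1.04% of all genes tested. The 11 became 20 with the block for animal, 3 without lesion replicate 3 and 4 without contralateral replicate 3. They became 5 without contralateral replicate 2, and 7 without lesion replicate 2 or contralateral replicate 1.

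The promoters of 4 genes, 3 of this list and B2m, are shown because interferon-induced genes are known to share a control element. Only windows that hold a match are printed. Interferon acts on genes through the interferon-stimulated response element, searched here on both strands as 2 copies of GAAA with any 2 bases between them. The windows are RefSeq promoters (GRCm38.p6, from 250 bases before to 50 bases after the annotated start), read 5′ to 3′ in the direction of the gene, with matches of either strand in capitals (from the reverse strand the copies read TTTC), and overlapping matches run together. Bst2 lies at chr8:71537423-71537722 on the minus strand, B2m at chr2:122147437-122147736, Ifit3 at chr19:34583279-34583578 and the first of 2 Gbp3 windows at chr3:142559794-142560093, all 3 on the plus strand.
Bst2: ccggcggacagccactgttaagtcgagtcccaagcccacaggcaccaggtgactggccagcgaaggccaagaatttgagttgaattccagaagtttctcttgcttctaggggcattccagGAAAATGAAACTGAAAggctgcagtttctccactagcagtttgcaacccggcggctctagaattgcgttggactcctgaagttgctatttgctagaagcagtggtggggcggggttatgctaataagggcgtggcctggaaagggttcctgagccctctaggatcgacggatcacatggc
B2m: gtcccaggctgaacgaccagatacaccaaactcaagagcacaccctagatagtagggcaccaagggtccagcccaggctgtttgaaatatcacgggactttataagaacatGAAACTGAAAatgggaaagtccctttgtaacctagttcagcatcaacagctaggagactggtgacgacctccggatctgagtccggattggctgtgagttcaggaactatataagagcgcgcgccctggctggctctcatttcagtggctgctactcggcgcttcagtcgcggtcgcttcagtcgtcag
Ifit3: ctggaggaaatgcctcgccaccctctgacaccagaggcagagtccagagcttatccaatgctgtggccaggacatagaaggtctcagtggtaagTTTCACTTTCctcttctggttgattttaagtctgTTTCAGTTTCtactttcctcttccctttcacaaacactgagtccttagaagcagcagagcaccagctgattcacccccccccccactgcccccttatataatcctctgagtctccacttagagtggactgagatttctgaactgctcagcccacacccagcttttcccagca
Gbp3: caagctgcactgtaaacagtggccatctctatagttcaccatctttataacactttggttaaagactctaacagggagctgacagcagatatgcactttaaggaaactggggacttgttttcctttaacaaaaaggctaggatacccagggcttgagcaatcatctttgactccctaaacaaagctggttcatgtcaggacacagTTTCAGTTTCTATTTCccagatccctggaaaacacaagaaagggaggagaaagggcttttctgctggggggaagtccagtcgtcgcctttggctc

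The element occurred in the windows of 18 of the 24 interferon list genes with a promoter in the table (75%), in 2 of 13 MHC class I genes (15.4%) and in 2 of 18 activated microglia genes (11.1%). Over all tested genes with a promoter it occurred in 496 of 13470 (3.68%). Among the higher genes it occurred in 19 of 161 beyond the contralateral shift (11.8%) and in 55 of 1233 of those shared with it (4.46%). The windows of Irf7, Xaf1, Oasl2, Cxcl9, Ifi44, Psmb8, H2-D1, H2-K1 and H2-Q7 do not hold the letters of the element. Neither does the other Gbp3 window. A second element, GAS (TTCNNNGAA, N being any base), was also searched. It occurred in 7 of the 24 interferon list genes (29.2%), 2 of 13 MHC class I genes (15.4%) and 0 of 18 activated microglia genes. Over all tested genes with a promoter it occurred in 1146 of 13470 (8.51%). Among the higher genes it occurred in 18 of 161 beyond the contralateral shift (11.2%) and in 93 of 1233 shared ones (7.54%).

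Irf7, the transcription factor that amplifies the interferon response, was at 5.33, 4.64 and 4.98 CPM at day 0, at 19.1, 25.3 and 37.2 CPM in the lesion libraries and at 5.83, 5.35 and 4.32 CPM on the contralateral side. Its log2 difference from day 0 was 2.44 (SE 0.466, adjusted p = 0.0016) and from the contralateral side 2.39 (adjusted p = 0.027). Bst2, which encodes the antiviral membrane protein tetherin and whose window holds 2 overlapping elements, was at 5.13, 6.58 and 6.09 CPM at day 0, at 16.2, 15.4 and 22.1 CPM in the lesion libraries and at 7.13, 6.3 and 5.26 CPM on the contralateral side. It was 3.01-fold above day 0 (adjusted p = 0.00011), with a side difference of 1.52 (adjusted p = 0.0028). In both genes all 3 lesion libraries exceeded the other 6.

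Irf9, a DNA-binding part of the factor that interferon activates, rose by 0.65, and its side difference of 0.49 (adjusted p = 0.0086) was lost without lesion replicate 3 (0.14) or contralateral replicate 3 (0.066). It shares exon bases with Rnf31 on the same strand, so the split of its reads is uncertain. Xaf1, an interferon-induced promoter of cell death, rose by 0.89 (adjusted p = 5.3e-06), with a side difference of 0.73 (adjusted p = 0.0013).

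Ifit3, which encodes an RNA-binding antiviral protein and whose window holds 2 elements, was at 7.15, 9.23 and 7.38 CPM at day 0, at 23.2, 33 and 48.2 CPM in the lesion libraries and at 14.1, 12.8 and 12.2 CPM on the contralateral side. It was 4.36-fold above day 0 (adjusted p = 0.00081), with a side difference of 1.41 that was not called (adjusted p = 0.12) although the groups did not overlap. Gbp3, a guanylate-binding protein of cell defence, was at 7.01, 8.43 and 9.39 CPM at day 0, at 19.5, 25.2 and 27.2 CPM in the lesion libraries and at 14.1, 15.1 and 9.91 CPM on the contralateral side, with 1.53 from day 0 (adjusted p = 0.00024) and an uncalled side difference of 0.88 (adjusted p = 0.14). Ifi27l2a rose 4.11-fold, and its side difference (1.83, adjusted p = 0.0015) was lost with the block for animal (adjusted p = 0.06). For Usp18, a protease that restrains interferon signalling, the block had the opposite effect on the side difference of 2.03, from an adjusted p of 0.085 to 0.00026. Rsad2, which encodes the antiviral enzyme viperin, was the member not called against day 0 (2.49, adjusted p = 0.053), with lesion libraries at 4.14, 10.2 and 23.1 CPM.

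Genes of antigen presentation by MHC class I rose in 12 of 15 members, beside 12.7% of all genes tested, with none lower (median 0.99, contralateral 0.19), and 8 of the 12 were beyond the contralateral shift. B2m, the constant chain of every class I molecule, was at 86.3, 101 and 92.8 CPM at day 0, at 241, 209 and 273 CPM in the lesion libraries and at 127, 119 and 114 CPM on the contralateral side. It was 2.58-fold above day 0 (adjusted p = 6.9e-08) and higher by 0.36 on the contralateral side (adjusted p = 0.035), and the side difference of 1.01 was called (adjusted p = 3.5e-05). H2-D1, a classical heavy chain, was at 86.2, 92.1 and 86.6 CPM at day 0, at 166, 168 and 176 CPM in the lesion libraries and at 89.5, 99.6 and 85.4 CPM on the contralateral side, a log2 difference of 0.94 (adjusted p = 8.2e-10). H2-Q7, a non-classical heavy chain, was at 0.966, 0.796 and 0.98 CPM at day 0, at 5.45, 4.95 and 5.1 CPM in the lesion libraries and at 1.06, 1.69 and 1.27 CPM on the contralateral side, 5.65-fold above day 0 (adjusted p = 9.5e-09). For all 3 genes the 3 lesion libraries lay above the other 6. The H2 heavy chain genes are near-identical copies, so the split of their reads is uncertain. Of 12 class II presentation genes, 6 rose and none fell (median 0.63, contralateral 0.18). Against the contralateral side 2 were called higher, H2-Oa and the T cell costimulator Cd86, beside 1.04% of all genes tested. Cd86 rose by 1.11 from day 0 (adjusted p = 3.7e-05). Of the 2, 1 remained called against the contralateral side without lesion replicate 3, contralateral replicate 1 or contralateral replicate 2. Cd74, the class II invariant chain, was at 12.7, 8.57 and 9.77 CPM at day 0, at 19.1, 19.8 and 19.5 CPM in the lesion libraries and at 14.1, 12.7 and 12.6 CPM on the contralateral side. The side difference of Cd74 (0.57, adjusted p = 0.5) was called with the block for animal (adjusted p = 0.0068).

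Some genes of lymphocyte-attracting chemokines and of T cells, several of them close to the limit of counting at day 0, rose on the lesion side. Cxcl9 (chr5:92321347-92328079, minus strand), a chemokine that draws T cells, was at 0, 0.0234 and 0.0258 CPM at day 0, at 2.36, 2.23 and 3.69 CPM in the lesion libraries and at 0.241, 0.113 and 0.047 CPM on the contralateral side. Summed over libraries this was 195 counts against 2 at day 0, a depth-scaled ratio of 159 with a 95% interval of 43.4 to 1320 that covers counting error only. The adjusted p against day 0 was 3.5e-06, and the side difference of 4.31 was called (adjusted p = 0.0014).

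Ccl5, a chemokine made by cytotoxic lymphocytes, was at 0.0828, 0.187 and 0.335 CPM at day 0, at 5.45, 4.18 and 8.51 CPM in the lesion libraries and at 0.433, 0.0563 and 0.0939 CPM on the contralateral side. It was 28.9-fold above day 0 (adjusted p = 1.7e-06), with a side difference of 4.88 (adjusted p = 7.2e-05). Cxcl13, which draws B cells, was at 0.0276, 0.0234 and 0.0516 CPM at day 0, at 1.55, 1.68 and 2.38 CPM in the lesion libraries and at 0.0963, 0.0563 and 0.047 CPM on the contralateral side, with 5.57 from day 0 (adjusted p = 0.00015). For both genes each lesion library lay above the other 6, as the naming rule required. The side difference of Cxcl13, 4.69 (adjusted p = 0.012), was lost without any one contralateral library (adjusted p of 0.065, 0.074 and 0.098 for replicates 1 to 3). Cxcl10, like Cxcl9 a ligand of the receptor Cxcr3, was at 0.331, 0.398 and 0.464 CPM at day 0 and at 2.66, 5.9 and 17 CPM in the lesion libraries, and at 0.771, 0.45 and 0.188 CPM on the contralateral side. It rose by 4.38 (adjusted p = 0.011), and its side difference of 4.15 (adjusted p = 0.2) was called with the block for animal (adjusted p = 0.038).

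Of 19 tested chemokine genes, 13 rose and 1, Cx3cl1, fell, beside 12.7% higher and 9.69% lower over all genes tested, with a median of 1.77, against 0.15 on the contralateral side. Without lesion replicate 3 the 13 became 7. Against the contralateral side 6 were called, beside 1.04% of all genes tested, which became 10 with the block for animal and 3 without contralateral replicate 2 or contralateral replicate 3. Cx3cl1, the neuronal ligand of the Cx3cr1 receptor, was at 260, 240 and 230 CPM at day 0, at 189, 186 and 187 CPM in the lesion libraries and at 195, 197 and 192 CPM on the contralateral side, lower on both sides by a log2 difference of -0.38 and -0.32.

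Cd8a (chr6:71373427-71379173, plus strand), the coreceptor of cytotoxic T cells, was at 0.0276, 0.0234 and 0.0516 CPM at day 0 and at 1.04, 0.363 and 0.292 CPM in the lesion libraries, a 15.3-fold difference (adjusted p = 0.00028). The 45 counts of the lesion libraries stood against 0 on the contralateral side, at least 12.4-fold higher when 3 counts are taken as the limit of the whole group (adjusted p = 0.003). Il2rb, a receptor chain for interleukin signals of T and natural killer cells, rose by 2.73 (adjusted p = 4.1e-05). Of 23 tested T and cytotoxic cell genes, 12 rose, beside 12.7% of all genes tested, none fell and 11 were not called (median 1.61, contralateral -0.03), and their summed level was 7.53 to 8.39 CPM at day 0, 15.5 to 20.9 CPM in the lesion libraries and 7.6 to 8.64 CPM on the contralateral side. The 12 became 6 without lesion replicate 1, 7 with DESeq2 and 4 under edgeR's own stricter filter. Against the contralateral side 6 genes were called, beside 1.04% higher over all genes tested, and they became 3 without contralateral replicate 3. Cd3e, a chain of the T cell receptor complex, differed by 1.28 (adjusted p = 0.14) and Cd4, the helper T cell coreceptor that microglia can also express, by 0.58 (adjusted p = 0.44). Gzma, Gzmb, Prf1, Trbc1 and Ifng had too few counts to be tested. The day 30 lesion libraries count toward the summed count of at least 30 that a tested gene needed. Cd8a passed by its 45 lesion counts alone, so the count and median of the T cell list depend in part on that filter. None of 7 B and plasma cell genes was called.

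Genes outside the lists that were chosen after their values were seen include Lag3, an inhibitory receptor of lymphocytes, at 3.31, 3.54 and 3.64 CPM at day 0, at 12.7, 13.4 and 14.1 CPM in the lesion libraries and at 3.32, 3.04 and 3.29 CPM on the contralateral side (log2 difference 1.94, SE 0.144, adjusted p = 3.3e-10). Anxa10, a member of the annexin family of lipid-binding proteins, was at 0.359, 0.281 and 0.309 CPM at day 0, at 4.88, 3.27 and 5.4 CPM in the lesion libraries and at 0.53, 0.45 and 0.517 CPM on the contralateral side, 14.1-fold above day 0 (adjusted p = 2.6e-11). Ppef1, a protein phosphatase gene, was at 0.386, 0.796 and 1.06 CPM at day 0, at 4.24, 5.63 and 7.39 CPM in the lesion libraries and at 1.01, 0.675 and 1.32 CPM on the contralateral side. Lipn, a lipase gene, had 53 counts in the lesion libraries and 0 in both other groups, at least 28.8-fold above day 0 and at least 14.6-fold above the contralateral side by the same limit of 3 counts. In these 4 genes the lesion libraries did not overlap with the 3 day 0 or the 3 contralateral libraries. Over all genes tested, 38.9% did not overlap with day 0 and 18% did not overlap with the contralateral side.

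The naming rule also gave Cdkn2a (chr4:89274471-89294653, minus strand), which encodes cell cycle inhibitors that accumulate in aged and arrested cells. It was at 0, 0.0234 and 0.0774 CPM at day 0, at 1.62, 3.36 and 1.85 CPM in the lesion libraries and at 0.0963, 0 and 0.0939 CPM on the contralateral side, with a log2 difference of 5.85 from day 0 (SE 0.514, adjusted p = 1.1e-08). Every lesion library lay above the other 6, as the naming rule required, and the side difference of 4.98 was called (adjusted p = 3.9e-06). At day 14 the lesion mean had been 0.939 ± 0.24 CPM (SD, n = 3). For the 2 lists that follow, 12.7% of all genes tested were higher and 9.69% lower than at day 0. Of 18 cell cycle genes, 1 was called, Bub1b, a call lost without lesion replicates 1 or 3 or day 0 replicates 1 or 2, and the proliferation marker Mki67 was at 1.02, 1.36 and 0.98 CPM at day 0 and at 1.28, 0.999 and 1.07 CPM in the lesion libraries (log2 difference 0.00, adjusted p = 1). Of 18 cell death and p53 genes, 5 rose and 1 fell. The 5 became 2 without lesion replicate 2 or day 0 replicate 2 and 3 without lesion replicate 3, near the share over all genes. The lower call was lost without lesion replicate 2 or 3 or day 0 replicate 2 or 3. Pmaip1, which encodes the cell death protein Noxa, was at 1.96, 1.8 and 1.24 CPM at day 0, at 4.44, 6.18 and 7.44 CPM in the lesion libraries and at 2.17, 2.2 and 2.54 CPM on the contralateral side (log2 difference 1.84, adjusted p = 7.7e-08).

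Some genes of reactive astrocytes were higher on the lesion side, and Gfap was not called. Of 19 reactive astrocyte genes, 5 rose and 1 fell (median 0.29, contralateral -0.05), beside 12.7% higher and 9.69% lower over all genes tested. The 5 higher ones became 3 without lesion replicate 1, day 0 replicate 2 or day 0 replicate 3, near the share over all genes. The lower one, S1pr3, a lipid receptor, was not called with DESeq2, without lesion replicate 2 or 3 or without any one day 0 library. Serpina3n, a secreted protease inhibitor of reactive astrocytes, was at 51.8, 68.8 and 47.5 CPM at day 0, at 103, 96.3 and 114 CPM in the lesion libraries and at 57.7, 52.9 and 59.6 CPM on the contralateral side (log2 difference 0.90, adjusted p = 0.00025). Cd44, a hyaluronan receptor, was at 6.24, 6.65 and 8.79 CPM at day 0, at 14.5, 16.3 and 19.8 CPM in the lesion libraries and at 6.98, 6.19 and 6.06 CPM on the contralateral side (1.21, adjusted p = 2.7e-06). Timp1, an inhibitor of matrix proteases, rose by 1.71 (adjusted p = 3.9e-06). These 3 genes were beyond the contralateral shift. Gfap, the intermediate filament by which reactive astrocytes are usually recognised, was at 800, 1150 and 1050 CPM at day 0, at 1110, 1040 and 854 CPM in the lesion libraries and at 871, 770 and 634 CPM on the contralateral side. It did not pass the test against day 0 (0.00, adjusted p = 1), and its side difference of 0.40 (adjusted p = 0.54) was called with the block for animal (adjusted p = 2e-04). Lcn2, an iron-binding protein of reactive astrocytes, was high in the first library of both day 30 sides, at 3.94 and 3.71 CPM, and its call against day 0 was lost without lesion replicate 1 (adjusted p = 0.23).

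Of the genes that differed from day 0 on both sides, the mitochondrially encoded ones had the largest list median. Mitochondrially encoded genes were higher on both sides, in 9 of 13 members on the lesion side, 8 of them in the shared class. Their median log2 difference was 0.90, against 1.06 on the contralateral side. Over all genes tested 12.7% were higher on the lesion side and 9.32% contralaterally. mt-Nd1, a subunit of respiratory complex I, was at 3220, 3610 and 4500 CPM at day 0, at 9110, 8300 and 9570 CPM in the lesion libraries and at 9370, 9220 and 11700 CPM on the contralateral side (log2 difference 1.25, adjusted p = 0.00037). mt-Tc, a mitochondrial transfer RNA gene, was at 3.92, 2.32 and 5.57 CPM at day 0, at 43.6, 32.9 and 31.1 CPM in the lesion libraries and at 43, 33.9 and 34.7 CPM on the contralateral side, with a difference of 3.20 from day 0 (adjusted p = 3.2e-07) and of -0.05 between sides (adjusted p = 0.98). mt-Ts2, another transfer RNA gene, had 76 counts in the lesion libraries and 3 at day 0, a ratio of 41.2 (95% counting interval 13.6 to 204). It shares bases with mt-Tl2, so the split of its reads is uncertain. mt-Co2 and mt-Nd3, with differences of -0.46 (adjusted p = 0.28) and -0.32 (adjusted p = 0.33), were not called.

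Of the nuclear genes of the respiratory chain, by contrast, 18 of 62 fell and 1 rose on the lesion side (median -0.16). Over all genes tested 9.69% were lower and 12.7% higher there. On the contralateral side 3 rose and none fell (median -0.03), beside 9.32% higher and 6.81% lower over all genes tested. No member was called between sides, near the share of 1.16% over all genes tested. The 18 became 10 without lesion replicate 1 or lesion replicate 2, 6 without lesion replicate 3, 2 without day 0 replicate 2, 29 with library totals and 4 on the deposited log2 matrix. The higher call was lost without lesion replicate 3 or day 0 replicate 2. Ndufs7, a subunit of complex I, was at 127, 147 and 137 CPM at day 0, at 104, 107 and 106 CPM in the lesion libraries and at 115, 122 and 118 CPM on the contralateral side (log2 difference -0.38, adjusted p = 0.00057).

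Circadian clock genes were called in 14 of 17 members, 11 higher and 3 lower, beside 12.7% higher and 9.69% lower over all genes tested. Of the 14, 13 were shared with the contralateral side. No side difference was called in any of the 17, which is near the 1.16% called over all genes tested. Per2, a repressor of the clock (chr1:91415982-91459324, minus strand), was at 12.6, 9.82 and 11.5 CPM at day 0, at 26.2, 29 and 30.5 CPM in the lesion libraries and at 26.1, 26.3 and 32.9 CPM on the contralateral side (1.34 on both sides, adjusted p = 0.00029 on the lesion side). Dbp, an output transcription factor of the clock whose exons lie opposite Sphk2, was at 22.9, 24.5 and 27.9 CPM at day 0, at 52.9, 48.4 and 48.8 CPM in the lesion libraries and at 53.1, 51 and 48.4 CPM on the contralateral side (1.00, adjusted p = 1.8e-09). Arntl, the clock activator BMAL1, went the other way, from 19.6, 16.5 and 19.2 CPM at day 0 to 10.5, 8.9 and 10.8 CPM in the lesion and 10.2, 11.5 and 8.97 CPM in the contralateral libraries (-0.87, adjusted p = 8.9e-07). The day 0 libraries lay apart from all 6 day 30 libraries for these 3 genes. The hour at which tissue was taken is not given in the sources used here.

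Fmo2 (chr1:162874317-162898726, minus strand), a flavin-containing monooxygenase, was at 2.46, 1.36 and 1.91 CPM at day 0, at 11.2, 10.9 and 13.3 CPM in the lesion libraries and at 9.58, 11.6 and 13.4 CPM on the contralateral side, 6.21-fold above day 0 (adjusted p = 1.1e-05) and 6.07-fold contralaterally. Plin4, a lipid droplet protein whose exons lie opposite Hdgfl2, was at 12.7, 2.69 and 4.02 CPM at day 0, at 22.1, 38.5 and 50.6 CPM in the lesion libraries and at 19.1, 36 and 50 CPM on the contralateral side (2.53, adjusted p = 0.0063). In its 3 replicate numbers the day 30 sides followed each other. It belongs to a list of 14 glucocorticoid response genes, of which 4 rose on each side with medians of 0.66 and 0.62. Over all genes tested 12.7% rose on the lesion side and 9.32% contralaterally. On the lesion side the 4 became 2 without lesion replicate 3 or day 0 replicate 3 and 7 without day 0 replicate 1. Fkbp5, a chaperone gene often used to read that hormone, differed by 0.53 (adjusted p = 0.16).

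**Figure D4:**
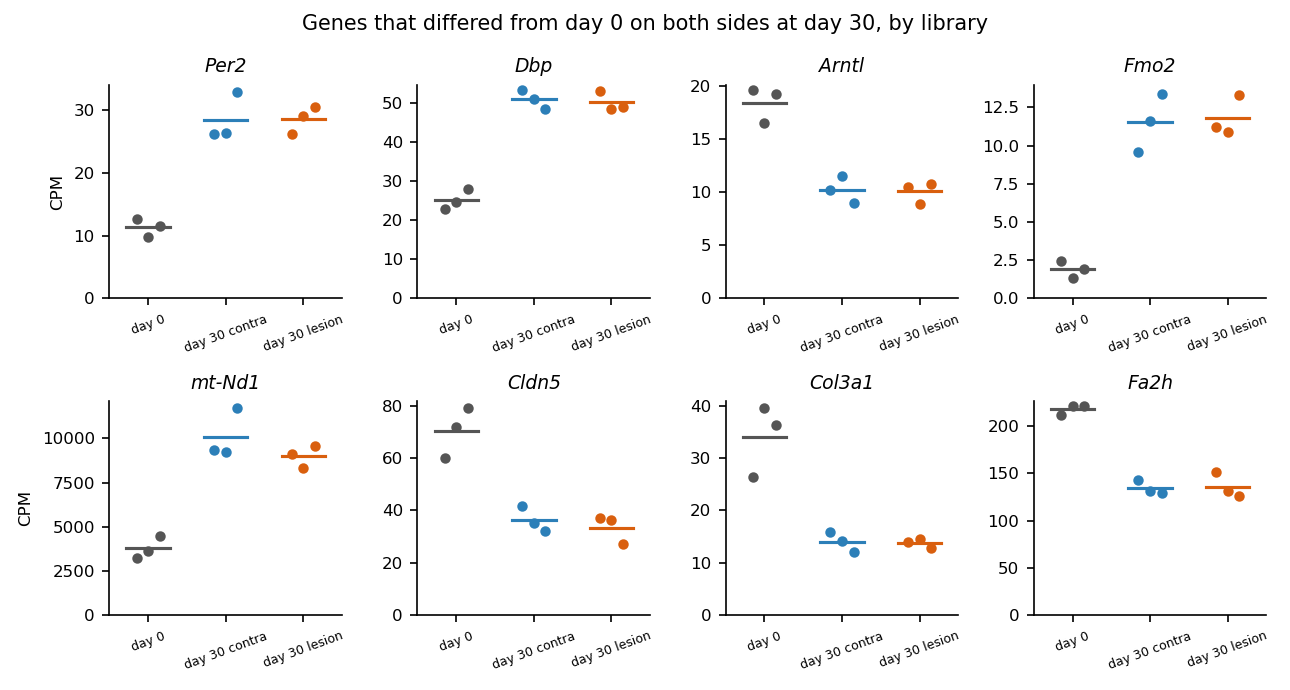
CPM (linear axes from 0) of 8 genes that differed from day 0 on both sides at day 30. Points are the 3 libraries of each group and lines are group means; the day 30 lesion and contralateral points overlap in each panel, and both lie apart from day 0.

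Some genes of vessels, oligodendrocytes and sterol synthesis fell. Over all genes tested 9.69% were lower on the lesion side and 6.81% on the contralateral side. Cldn5, the tight junction protein of brain endothelium, was at 60.1, 72 and 79.2 CPM at day 0, at 36.9, 36.2 and 27.1 CPM in the lesion libraries and at 41.5, 35.2 and 31.9 CPM on the contralateral side (-1.07, adjusted p = 0.00035, and -0.96 contralaterally). The endothelial and mural list held 7 lower and 2 higher genes of 17, with 8 not called (median -0.24), and 7 lower and 1 higher on the contralateral side. On the lesion side the 7 became 4 without day 0 replicate 2. The higher ones became 1 without lesion replicate 2 or 3 or day 0 replicate 2 or 3. Among them was Slco1a4, a transporter of the blood-brain barrier (0.69, adjusted p = 1.3e-07). Col3a1, a fibrillar collagen of vessel walls and meninges, was at 26.3, 39.5 and 36.3 CPM at day 0, at 13.9, 14.6 and 12.7 CPM in the lesion libraries and at 15.9, 14.1 and 12 CPM on the contralateral side (-1.31, adjusted p = 0.0027).

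Fa2h, an enzyme of myelin lipid synthesis, was at 212, 222 and 221 CPM at day 0, at 151, 131 and 126 CPM in the lesion libraries and at 143, 131 and 129 CPM on the contralateral side (-0.68, adjusted p = 4.2e-08). It is 1 of 7 lower genes of 15 in the myelin and oligodendrocyte list. In that list 1 gene, Aspa, was higher and 7 were not called. The contralateral side gave the same counts, and the median was -0.28 on both sides. The oligodendrocyte precursor list had 6 lower and 1 higher of 11 (median -0.44), and the higher one was lost without any one of the 6 libraries compared. Gpr17, a receptor of differentiating precursors, was at 107, 90 and 112 CPM at day 0, at 65.4, 63.2 and 59.6 CPM in the lesion libraries and at 60, 53.8 and 52.7 CPM on the contralateral side (-0.72, adjusted p = 3.3e-05). Of 22 cholesterol synthesis genes, 12 fell and none rose on the lesion side (median -0.24), and 7 fell contralaterally (median -0.18), with Dhcr7, the last enzyme of the pathway, at -0.40 on the lesion side and -0.38 contralaterally. None of these lists had a member called between sides, near the share of 1.16% over all genes tested.

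Of the largest falls from day 0, Spon2, which encodes a secreted matrix protein, was at 0.966, 2.27 and 1.26 CPM at day 0 and at 0.202, 0.182 and 0.194 CPM in the lesion libraries (-2.93, adjusted p = 9.1e-07, and -3.85 contralaterally). Pcdh12, a protocadherin of endothelial cells, followed at -2.22 (adjusted p = 5.9e-07), also on both sides. The calls of Ano2 and Mapk13 rested on single libraries. Without day 0 replicate 2, the highest day 0 library for both, their adjusted p was 0.13 and 0.075. Ano2 was also lost without any one lesion library (0.062, 0.072 and 0.066) and Mapk13 without lesion replicate 2 (0.075).

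Markers of tissue at the edge of the dissected block were compared as well. Over all genes tested 12.7% were higher and 9.69% lower than at day 0. With so few members, 1 or 2 calls in a list were not read as a result about it. None of 10 choroid plexus genes and none of 8 ependymal genes was called, with a summed choroid plexus level of 15.9 to 105 CPM at day 0, 37 to 69.3 CPM in the lesion libraries and 21 to 43 CPM on the contralateral side. Ttr, the main choroid plexus transcript, was at 77.1, 4.66 and 3.61 CPM at day 0 and at 45.7, 28.5 and 19.8 CPM in the lesion libraries (0.17, adjusted p = 0.96). Of 10 genes of monoamine neurons, which lie near the facial nucleus, 2 were lower, Dbh and Th, enzymes of noradrenaline synthesis, and neither was called without lesion replicate 3 (adjusted p of 0.053 and 0.12) or without day 0 replicate 2 (0.055 and 0.16), the highest day 0 library of both at 25.1 and 15.2 CPM. The summed level of 9 blood cell genes was 6.79, 6.28 and 56.5 CPM at day 0, against 8.31 to 13.5 CPM in the lesion libraries, so day 0 replicate 3 stood apart. Their median difference was -0.93, with the haemoglobin gene Hba-a1 lowest at -3.05 (adjusted p = 0.057). Of the 9, 2 rose, the monocyte genes Ccr2 (1.37, adjusted p = 0.0064) and Ly6c2 (2.04, adjusted p = 0.036), and Ly6c2 was not called without any one lesion library (adjusted p of 0.1, 0.07 and 0.061) or without day 0 replicate 1 (0.1) or 2 (0.12). Of 10 cerebellar genes, 1 rose, Neurod1, which was not called without lesion replicate 1 (0.25) or 3 (0.051) or without day 0 replicate 2 (0.13) or 3 (0.15). The pan-neuronal list held 6 higher and 1 lower gene of 17 (median 0.06, contralateral 0.04). The 6 became 3 without day 0 replicate 2. No member of these lists was called between sides, near the share of 1.16% over all genes tested. Their part in the results above was not tested.

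**Figure D5:**
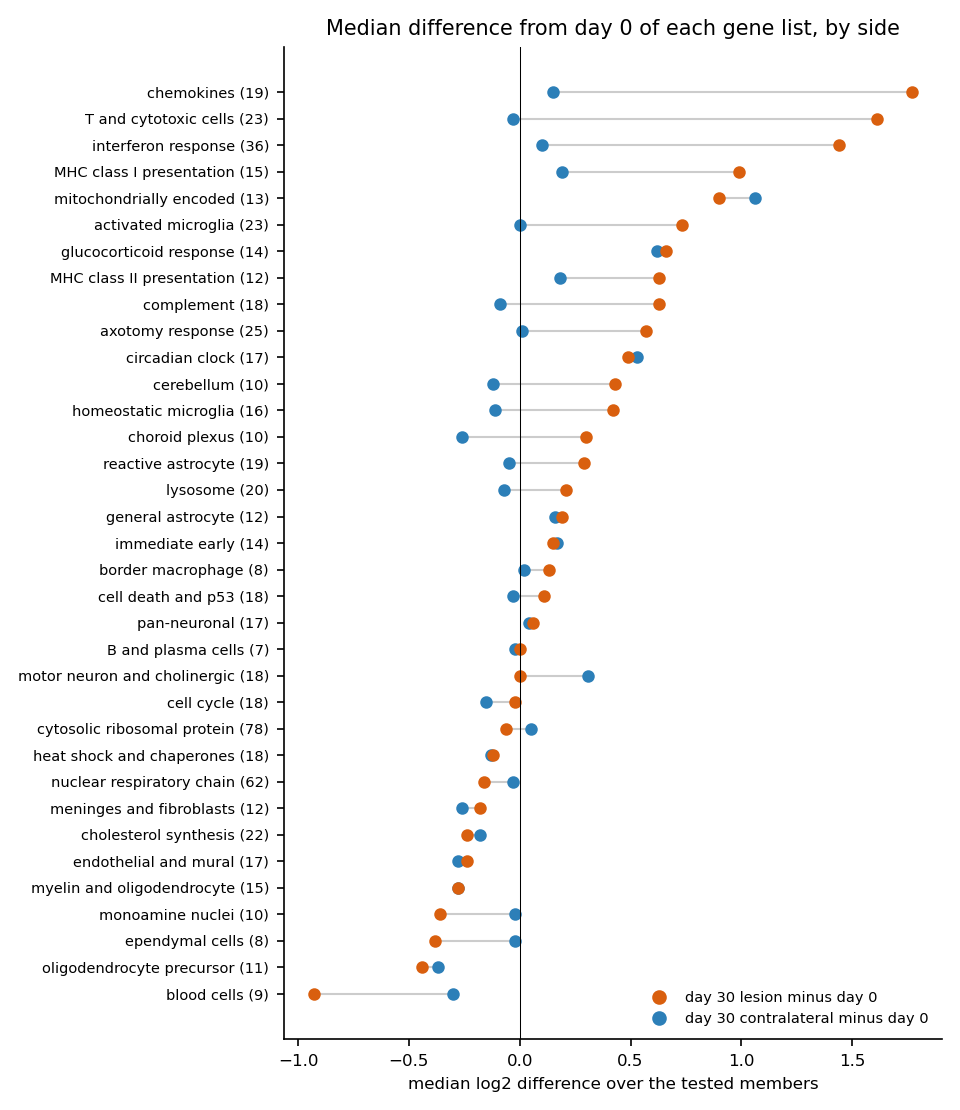
Median log2 difference from day 0 over the tested members of each of 35 gene lists (number of tested members in brackets), in the day 30 lesion libraries (orange) and the day 30 contralateral libraries (blue), ordered by the lesion value. The sides lie far apart for chemokines, T and cytotoxic cells, interferon response and MHC class I presentation, and close together for mitochondrially encoded, circadian clock and myelin genes.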

How the data were processed

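Libraries were built by the authors from 300 ng of total RNA with an mRNA kit that keeps the strand, and sequenced as single reads of 50 bases, per the labels. Base calling was done by the authors in CASAVA 1.8.2, alignment in Subread against GRCm38.p4 and counting in featureCounts, per the submitters' processing notes and, for the GENCODE annotation, the series' design text; the strand setting is not given in the sources used here. The deposited table gives raw counts of 45664 genes, of which 32815 had a count. The authors' deposited log2 matrix (limma voom, log2 CPM) was used as an alternative only. Its values for 22269 genes were recomputed from the counts and differed by at most 5e-11.

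Genes with a summed count of at least 30 over the 21 libraries (22294) were tested two-sided by the quasi-likelihood F-test of edgeR 4.0.16 (R 4.3.3), with TMM factors, robust fitting and a coefficient for each group of all 21 libraries, adjusted over all genes tested at 0.05. With 3 against 3 libraries an exact test cannot go below p = 0.1, so all groups contributed to the estimate of the spread. On simulated data the script was checked against known changes. Gene lists are described by counts and medians, with no test. The members and lists were chosen with earlier results of these data known. Intervals of ratios and the floor of 3 counts cover counting error only. Genes near silence elsewhere, such as Cxcl9, Cd8a and Lipn, passed the filter of 30 by their day 30 lesion counts alone.

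Named genes were the 8 rising and 8 falling with the largest difference from day 0 (at least 1 CPM, no overlap of libraries, no predicted genes). The same was done among genes beyond the contralateral shift, there also with no overlap with the contralateral libraries. Added to these were 5 and 5 among shared ones, the members with the smallest p of each list and a set of marker genes. Other genes are named from the lists. Some genes that the rule gave are not reported here. The main test between sides was unpaired. Only the alternative with a block for animal treated replicate numbers as pairing the day 30 sides. It was run because deviations from the group means of same-numbered lesion and contralateral libraries correlated across genes at 0.19 to 0.21 (3 pairs). Lesion and day 0 libraries of the same number correlated at -0.12 to 0.04 and were not treated as paired in the main test. In the replicate block alternative their number was fitted all the same. Alternatives were DESeq2 1.42.0, limma 3.58.1, other scalings, filters and sample sets, the replicate block and leaving out each library. Gene positions were taken from GENCODE M21 for GRCm38, and promoters from RefSeq (GRCm38.p6).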

Additional observations from a re-analysis of the deposited data

Results flagged for a closer look

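The difference from day 0 was not the same on the day 30 sides for 259 genes by edgeR's quasi-likelihood test of that difference: it was higher on the lesion side for 232 and lower for 27. Among the 232 are Sprr1a, Cst7, C1qa and B2m, and among the 27 are Vipr2, Kcnj14 and Prss12, whose values by library are given above.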

How the results depend on the processing

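Over the alternatives run, named genes kept their direction and side of the threshold against day 0 in 2260 of the recomputed values, were no longer called in 105 and newly called in 1; against the contralateral side the numbers were 825, 51 and 6, and none reversed. The 21 reversals were all of 4 uncalled genes. Their differences over all the alternatives ranged from -0.01 to 0.13 for Cx3cr1, -0.12 to 0.17 for Mki67, -0.36 to 2.93 for Ttr and -0.14 to 0.11 for Gfap. Cx3cr1 was at -0.01 without day 0 replicate 2. Mki67 was at -0.04 with library totals and at -0.12, -0.06 and -0.09 without lesion replicate 1, day 0 replicate 1 and day 0 replicate 3. Ttr was at -0.22, -0.34 and -0.36 without lesion replicate 1, day 0 replicate 2 and day 0 replicate 3. Gfap was at 0 to 0.02 under 10 settings of tool, scaling, filter, sample set and block (values 0, 0.01 and 0.02). It was at 0.1, 0.11 and 0.04 without lesion replicate 3, day 0 replicate 2 and day 0 replicate 3. With an absolute log2 difference of at least 1.7 the calls were 275 against day 0, 65 between sides, 100 for the contralateral side against day 0, 53 and 1 beyond the contralateral shift (higher and lower) and 45 and 5 shared. With only the groups compared, 569 genes differed between sides and 78 lower genes were beyond the contralateral shift. With library totals, 1818 lower genes were shared. With the block for animal, 372 genes differed between sides. A block on the replicate numbers, which do not pair day 0 with day 30 samples, gave 5396 calls against day 0. With the first block between sides and the second against day 0, 42 lower and 278 higher genes were beyond the contralateral shift. The 372 and the 278 were within 1.5 times the values above. Leaving out 1 library at a time gave 3402 to 4711 calls against day 0, 158 to 218 between sides, 2469 to 3078 for the contralateral side against day 0, 135 to 216 higher and 12 to 24 lower genes beyond the contralateral shift, and 600 to 894 lower shared genes. Beside the genes named in the report, the block for animal changed the side call of other list members, chiefly interferon genes. The day 0 libraries are deeper than the day 30 ones, and genes under about 1 CPM, such as Cxcl9 and Cd8a, rest on few counts. The cause of these changes was not tested.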
